A study of Mus musculus with 2 samples.

Results

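The cells described here are mature dendritic cells with transcripts of Fscn1 and Il4i1, found in a preparation of natural killer (NK) cells from mouse spleen. They were selected on measured transcript counts. A barcode was counted as one of them when at least 3 of the 6 genes Fscn1, Il4i1, Apol7c, Anxa3, Cxcl16 and H2-M2 had a unique molecular identifier (UMI, a counted transcript), and Klre1, an NK receptor gene, and Cd79a, a B cell receptor gene, had 0. The gate held 217 of the 11692 barcodes that carried exactly 1 lipid tag. Their total was 1568034 gene UMIs, with a median of 6304 UMIs and 2163 genes per barcode. The gate reads transcript counts of the same cells, so the levels of its own genes are given as a description and with no test.

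All cells came from wild-type mice, and no treatment or age is given in the labels. NK cells had been isolated from dissociated spleens with a negative selection kit, in which dendritic cells are among the cells that are labelled with antibodies and removed on a magnetic column. The gated cells are thus those that stayed in the preparation after this depletion, and their share is not a share of the spleen. The labels give 2 samples of the same kind, and 1 of them was analysed here, as a single library in which cells of different mice had been combined with 3 lipid tags. No source ties a tag to a mouse, so the 3 tags served as replicates of the library, and their spread may be technical. The library held 16384 barcodes, of which 15742 passed the limits on genes and mitochondrial UMIs, 3540 of these carried several tags and 510 none. The gated cells are set against 167 other dendritic cells with at least 3 UMIs of H2-Aa, an MHC class II chain, a UMI of Flt3, a receptor of dendritic cell growth, and no UMI of Klre1 or Cd79a. Of these, 60 had a UMI of Cd209a, a lectin receptor gene of a class of conventional dendritic cells, and 107 had none. The median depth of the 167 was 9862 UMIs, above that of the gated cells. A further 183 barcodes met the H2-Aa and Flt3 limits but held a Klre1 or Cd79a UMI, and were left out. With them kept, as in an alternative given below, the other dendritic cells numbered 350. The sizes of the 2 groups thus depend on this limit.

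Dendritic cells take up material in tissues and present its peptides to T cells on MHC molecules. On maturation they lower uptake, raise costimulatory ligands, switch on the chemokine receptor CCR7 and move along its ligands into T cell zones. In spleen, the immature conventional cells fall into a class called cDC1, with Xcr1 and Clec9a, which is known for presenting material from dead cells on MHC class I, and a class called cDC2, with Sirpa and in part Cd209a.

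The gated cells made up 2.03%, 2.26% and 1.26% of the barcodes of tags 1 to 3, a mean of 1.85% ± 0.522 (SD, n = 3). Over the library the share was 1.86% with an exact binomial 95% interval of 1.62 to 2.12%, which covers counting error only. In numbers these were 73, 95 and 49 gated cells, against 46, 45 and 76 other dendritic cells. Tag 3 thus held the fewest gated cells and the most other dendritic cells, and B barcodes, with at least 2 UMIs of Cd79a and none of Klre1, were 4.31%, 2.19% and 8.16% of tags 1 to 3. The part of the selection in these shares was not tested.

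Each gene of the gate had a higher level in gated cells of every tag than in the other dendritic cells, which the choice of cells favours. Levels are in CPM, counts per 1e6 gene UMIs of the same cells, and each of these genes is protein-coding in the annotation of the mouse build mm10. Fscn1 (chr5:142960343-142973185) encodes fascin, which bundles actin in the processes of mature dendritic cells, and had 1007, 1344 and 983 CPM in the gated cells of tags 1 to 3, against 5.75, 8.99 and 5.91 CPM in the other dendritic cells. Il4i1 (chr7:44816387-44840809), a secreted amino acid oxidase, had 921, 824 and 540.0 CPM in the gated cells of tags 1 to 3, against 23, 70.1 and 29.6 CPM in the other dendritic cells. It overlaps 3 annotated genes, 2 of them on the other strand, and the strand setting of the counting is not given in the sources used here. Apol7c (chr15:77524852-77533316), of the apolipoprotein L family, had 1528, 1464 and 1261 CPM in the gated cells of tags 1 to 3, against 180.3, 370.2 and 251 CPM in the other dendritic cells. Its level in the other dendritic cells was above 0 in each tag, at 31.7% of cells with a UMI. Anxa3 (chr5:96793339-96845966), a calcium-dependent membrane-binding annexin, had 632, 759 and 729 CPM in the gated cells of tags 1 to 3, against 11.5, 14.4 and 3.55 CPM in the other dendritic cells. Cxcl16 (chr11:70453983-70459984), a membrane-bound chemokine that binds CXCR6, had 698, 737 and 668 CPM in the gated cells of tags 1 to 3, against 72.9, 61.1 and 41.4 CPM in the other dendritic cells. H2-M2 (chr17:37480851-37483552), a non-classical MHC class I gene, had 564, 289 and 423 CPM in the gated cells of tags 1 to 3, against 65.2, 0 and 0 CPM in the other dendritic cells.

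**Figure D1:**
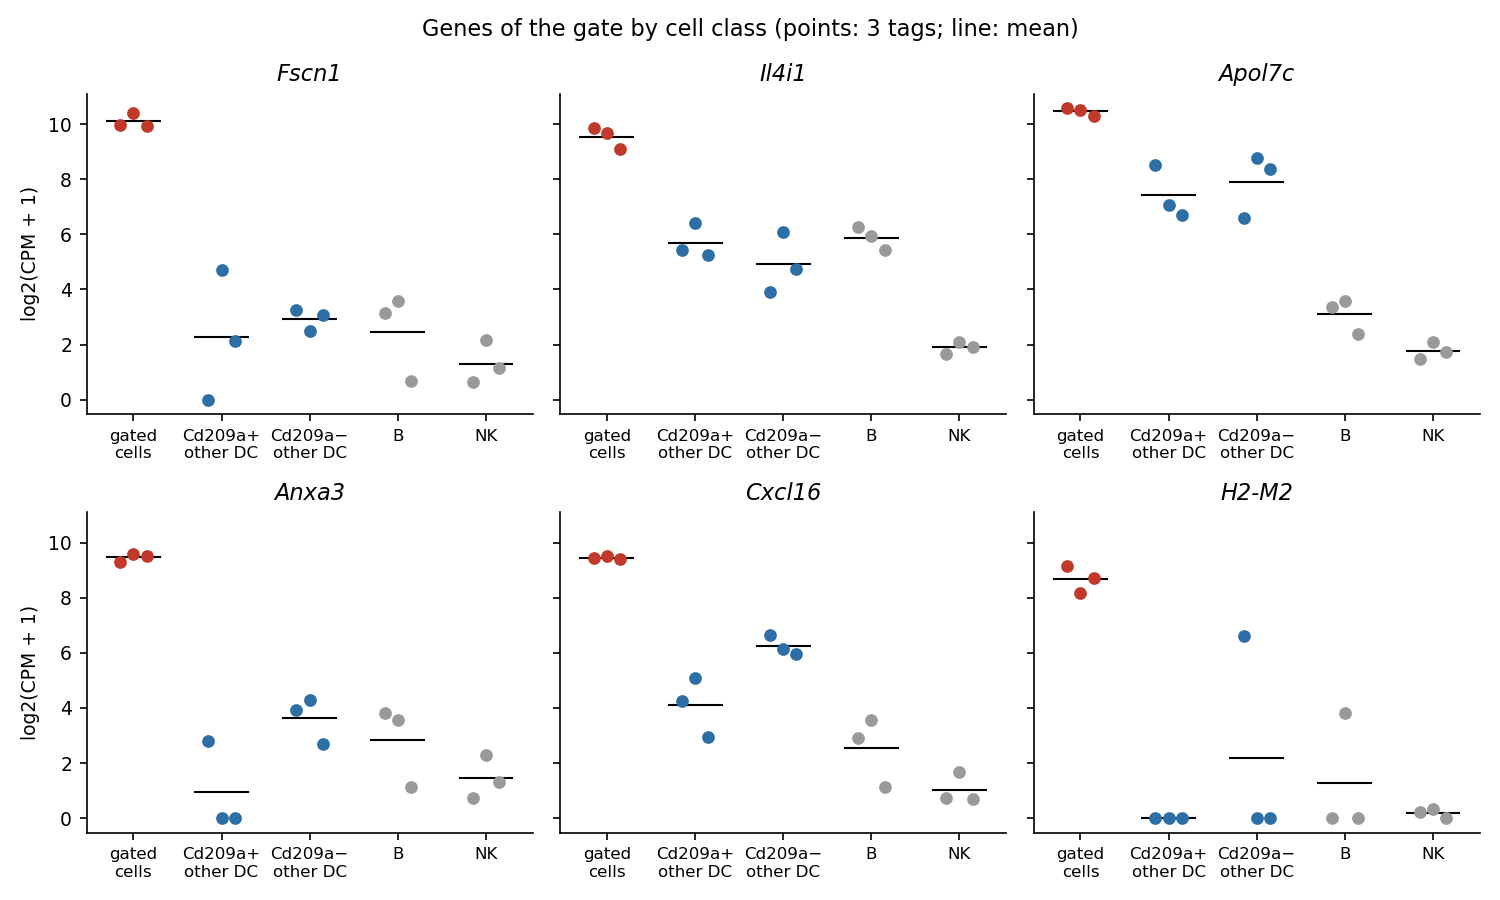
Level of the 6 genes of the gate as log2(CPM + 1) in gated cells, Cd209a-positive and Cd209a-negative other dendritic cells, B barcodes and NK barcodes, with 1 point per tag and a line at the mean. The red points of the gated cells stand above those of the other classes in all 6 panels, and H2-M2 in the other dendritic cells is above 0 in tag 1 alone.

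The 5 marker genes given for this cell type were also counted in NK barcodes. These had a Klre1 UMI, no Cd79a and no H2-Aa UMI and a median depth of 4016 UMIs. All 5 genes are part of the gate, so their share in gated cells follows from the choice of cells. The part of free RNA in the droplets was not tested. Fscn1 had a UMI in 90.8% of gated cells, against 0.448% of NK barcodes. Il4i1 had one in 91.2% of gated cells, against 1.18% of NK barcodes, and Apol7c, Anxa3 and Cxcl16 in 77.4%, 90.8% and 91.2% of gated cells. Il4i1 was also found in 14.4% of B barcodes, with pooled levels of 53.7 CPM there and 39.5 CPM in the other dendritic cells. Of the genes that the gate did not read, Zbtb46 and Spi1 had transcripts in gated cells. Zbtb46, a factor of conventional dendritic cells, was at 152 ± 15.4 CPM in gated cells and 92.3 ± 10.6 CPM in the other dendritic cells (SD, n = 3), and Spi1, encoding PU.1 of myeloid cells, was at 378 ± 28.1 CPM in gated cells and 336 ± 15.1 CPM in the other dendritic cells. NK barcodes had 10.2 and 3.45 CPM of these genes. The difference in Spi1 between gated and other dendritic cells did not pass the test described below. It did pass with Klre1 and Cd79a allowed in the other dendritic cells (log2 fold change 0.66, adjusted p = 0.0057). Both genes are on a general dendritic cell list, of which 6 of 19 tested were higher and 9 lower in gated cells. Siglech, a receptor gene of plasmacytoid dendritic cells, had 0 UMIs in gated cells and 74 in the other dendritic cells.

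The gated cells differed in how many genes of the gate they held. There were 24 with 3 genes, 44 with 4, 85 with 5 and 64 with all 6. Ccr7, which the gate did not read, had a UMI in 54.2% of those with 3 genes, 88.6% with 4, 94.1% with 5 and 96.9% with 6. Just outside the gate stood 75 barcodes with 2 of its genes, of which 11 had a Ccr7 UMI. Their pooled Ccr7 level was 28.3 CPM, against 329 CPM in those with 3 genes. Their median depth was 11176 UMIs, against 5554 UMIs in the cells with 3 genes. Of the 75, 44 met the limits of the other dendritic cells, and a gate of at least 2 genes moves them to the gated cells. A further 55 barcodes with at least 3 genes of the gate were left out for a Klre1 UMI and 5 for a Cd79a UMI. Among those left out, 27 had exactly 1 such UMI and 55 had Ccr7.

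**Figure D2:**
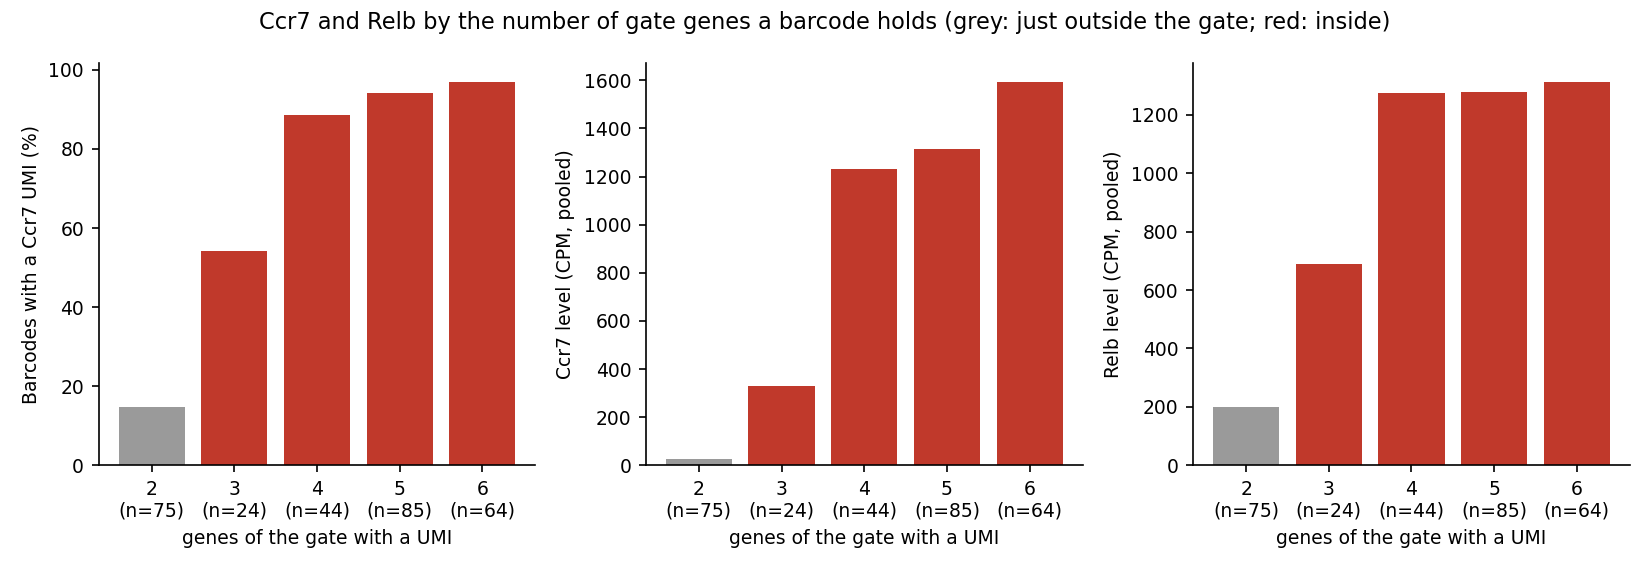
Share of barcodes with a Ccr7 UMI, pooled Ccr7 level and pooled Relb level (CPM) by the number of gate genes with a UMI, from 2 (grey, just outside the gate) to 6 (red, inside). The Ccr7 level is 28.3 CPM at 2 genes and 1229 CPM at 4, with 329 CPM in the 24 barcodes with 3.

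Genes listed for maturation and costimulation were mostly higher in gated cells. The gene lists were chosen with earlier results of these data known, so their counts are descriptions and not tests. Of 31 listed genes that could be tested, 28 were higher, 1 was lower and 2 did not pass, with a median log2 fold change of 3.77, also with genes at 0 in a group put at their bound. Over all 6884 genes tested the median was 0.003, and 45.1% passed edgeR's quasi-likelihood test at a Benjamini-Hochberg adjusted p of 0.05, with 24% higher and 21.1% lower in gated cells. Errors of fold changes are approximate standard errors over the 3 tags. The gate chose the cells from their own transcripts, so genes that vary together with its genes differ by that choice, and the test only sets each difference against its spread from tag to tag. Levels in gated cells of every tag were above those in the other dendritic cells of every tag for 25.6% of all tested genes, and below them for 31%.

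Ccr7 (chr11:99144196-99155077), the chemokine receptor that guides mature dendritic cells to T cell zones, had 1784, 1128 and 1005 CPM in gated cells, against 1.92, 18 and 7.09 CPM in the other dendritic cells. The tags of the 2 groups did not overlap (log2 fold change 7.20 ± 0.36, adjusted p = 5.41e-07), and 194 of 217 gated cells had a UMI, against 4.79% of the other dendritic cells and 1.31% of NK barcodes. B barcodes held Ccr7 as well, with a UMI in 46.5% and a pooled level of 191 CPM. Cd83, a membrane protein that marks mature dendritic cells, had 1271, 754 and 799 CPM in gated cells, against 560.0, 435 and 294 CPM in the other dendritic cells (log2 fold change 1.24 ± 0.15, adjusted p = 9.46e-05). Cd40, the receptor for CD40 ligand of T cells, had 229, 158 and 142 CPM in gated cells, against 32.6, 55.7 and 13 CPM in the other dendritic cells (log2 fold change 2.54 ± 0.33, adjusted p = 1.82e-04). The other dendritic cells were lower than the gated cells in each tag for these 3 genes, and had UMIs of all 3. Cd86 and Cd80, the ligands of CD28, did not pass the test. Cd86 had 391, 188 and 103 CPM in gated cells, against 276, 316 and 249.5 CPM in the other dendritic cells (log2 fold change -0.34 ± 0.30, adjusted p = 0.372), and the tags of both groups overlapped. Without tag 1 it was lower in gated cells, at -0.89 (adjusted p = 0.0054). Cd80 had 134, 60.8 and 44.5 CPM in gated cells, against 86.3, 52.1 and 40.2 CPM in the other dendritic cells (adjusted p = 0.106). It passed as higher with Klre1 and Cd79a allowed in the other dendritic cells, at 0.93 (adjusted p = 0.0082). With a gate of at least 2 genes it also passed, at 1.16 (adjusted p = 0.0232).

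Cd274, encoding PD-L1, the ligand of the inhibitory receptor PD-1, had 488, 419 and 415 CPM in gated cells, against 26.9, 80.9 and 54.4 CPM in the other dendritic cells (log2 fold change 3.14 ± 0.29, adjusted p = 2.02e-05). An annotated gene lies antisense to it. Tnfrsf4, encoding OX40, had 269.8, 301 and 203 CPM in gated cells and 3 UMIs in all other dendritic cells, a ratio of 173 (58.6 to 840.1) by counting error. Il15ra, which holds interleukin 15 at the cell surface, rose by 4.72 on the log2 scale and Cd200, a ligand of an inhibitory myeloid receptor, by 3.59. Icam1, the adhesion ligand of LFA-1, rose by 1.87. The exception in the list was Cd48, a ligand of the receptor CD244, with 68, 56.7 and 44.5 CPM in gated cells, against 205, 198 and 227 CPM in the other dendritic cells (log2 fold change -1.77 ± 0.22, adjusted p = 1.33e-04).

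Other genes of the list have less clear roles in dendritic cells. Samsn1, an adaptor of lymphocyte signalling, had 1864, 1909 and 1862 CPM in gated cells, against 111, 133 and 116 CPM in the other dendritic cells. Tbc1d4, which acts on Rab GTPases, had 1899, 1862 and 1876 CPM in gated cells, against 224, 390.0 and 459 CPM in the other dendritic cells. Both varied little among the gated cells' tags and did not overlap with the other dendritic cells (log2 fold change 4.07 ± 0.12, adjusted p = 2.72e-08, and log2 fold change 2.54 ± 0.19, adjusted p = 5.30e-06). Mreg, encoding melanoregulin, had 781, 933 and 1083 CPM in gated cells, against 11.5, 35.9 and 27.2 CPM in the other dendritic cells. Slco5a1, of the organic anion transporter family, had 371, 572 and 699 CPM in gated cells, against 1.92, 3.59 and 8.28 CPM in the other dendritic cells. Cacnb3, a beta subunit of voltage-gated calcium channels, had 385, 527 and 507 CPM in gated cells, against 5.75, 3.59 and 1.18 CPM in the other dendritic cells. Their log2 fold changes were 5.34, 6.85 and 7.24. Marcksl1 and Basp1, which bind the membrane and actin, rose by 3.8 and 4.15, and Etv3, a transcription factor of the ETS family, by 3.77.

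**Figure D3:**
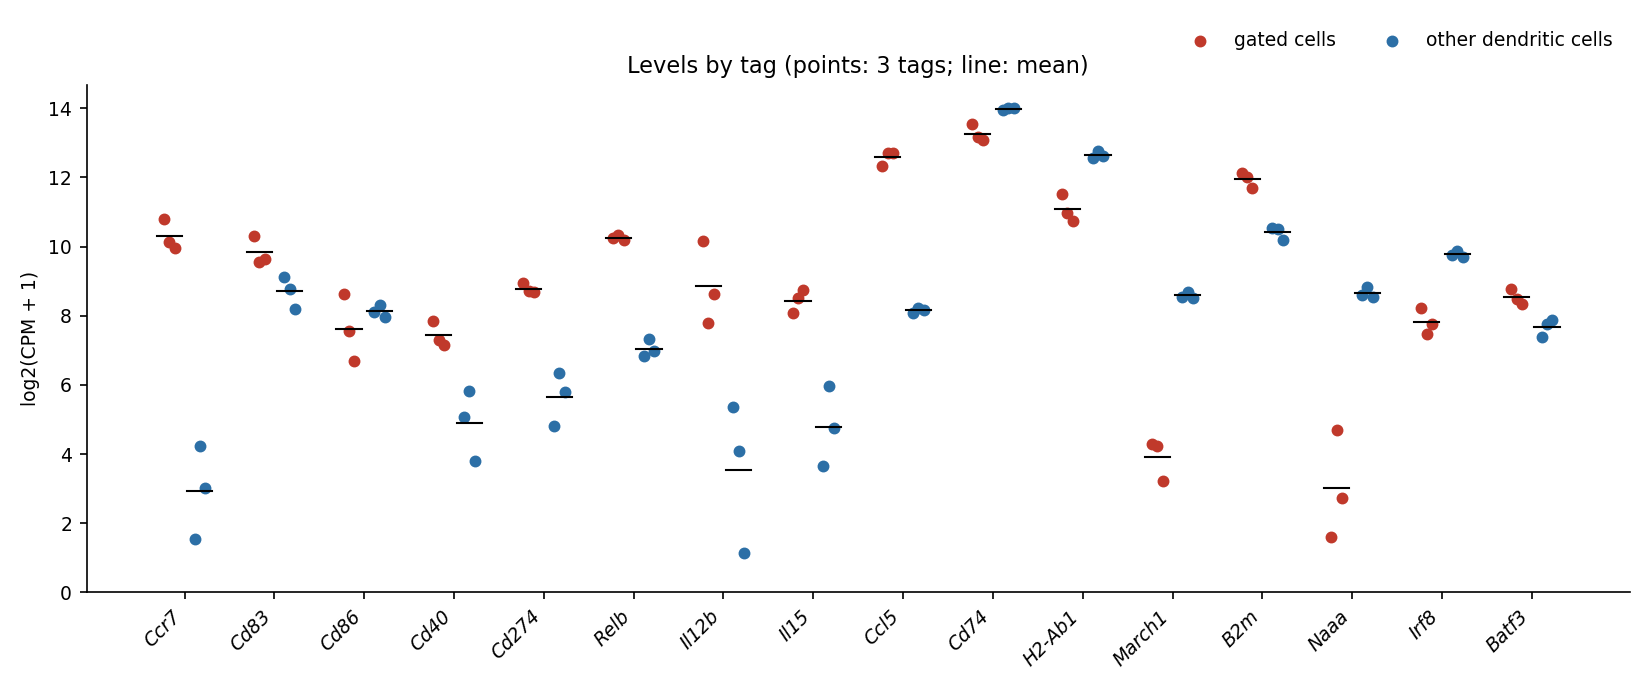
Level as log2(CPM + 1) of 16 genes in gated cells (red, left of each pair) and the other dendritic cells (blue, right), with 1 point per tag and a line at the mean. Gated cells stand above the other dendritic cells in every tag for Ccr7, Relb, Cd274 and Ccl5 and below them for Cd74, H2-Ab1, March1, Naaa and Irf8, and the tags of both groups overlap for Cd86.

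Genes of the NF-κB pathway, which relays signals of pattern and TNF family receptors to transcription, were higher in gated cells as well. Of 24 tested, 20 were higher and 0 lower, with a median log2 fold change of 1.71. Relb (chr7:19606217-19629438), the subunit of the alternative pathway that dendritic cells need to mature, had 1205, 1279 and 1172 CPM in gated cells, against 113, 158 and 124 CPM in the other dendritic cells (log2 fold change 3.32 ± 0.14, adjusted p = 3.30e-07). Nfkb2, which encodes its partner p100/p52, had 165, 130.0 and 103 CPM in gated cells, against 46, 50.3 and 28.4 CPM in the other dendritic cells (log2 fold change 1.78 ± 0.22, adjusted p = 1.38e-04). Map3k14, encoding the kinase NIK at the head of that pathway, rose by 1.90, and Traf3 and Birc2, which hold NIK low, by 2.75 and 3.83. Rel, a subunit of the classical pathway, had 1518, 1039.7 and 1364 CPM in gated cells, against 455, 358 and 303 CPM in the other dendritic cells (log2 fold change 1.92 ± 0.14, adjusted p = 4.62e-06). Rela rose by 1.53, but was 1.04 (adjusted p = 0.053) with cells of both groups within the depth range of the gated cells, 3207 to 11577 UMIs, and 1.17 (adjusted p = 0.0647) with a gate of at least 2 genes. Nfkb1, at 224 ± 48.5 CPM in gated cells and 267 ± 42.6 CPM in the other dendritic cells, did not pass (adjusted p = 0.611). The inhibitors Nfkbia, encoding IκBα, and Tnfaip3, encoding A20, rose by 1.31 and 2.16. Traf1 and Tank, adaptors of TNF receptor signalling, had 954, 949.8 and 857 CPM and 972, 937 and 991 CPM in gated cells, against 155, 131 and 56.8 CPM and 153, 124 and 102 CPM in the other dendritic cells.

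Promoter sequences of these genes are shown because many genes of the pathway moved together. The NF-κB consensus, a motif of 10 bases, was searched for on both strands in the 250 bases before each RefSeq start of the build GRCm38.p6. It was found in 7.25% of 32851 promoters, in 16 of 32 promoters of 22 genes of the NF-κB list, in 4 of 30 promoters of 25 genes of the maturation list, and in 1 of the 4 promoters of the gate genes with an entry. A match describes letters and not a bound site, and overlapping matches were counted each. Below stand H2-M2, the gate gene with matches, Fscn1, a gate gene with none, and Nfkb2 and Rel of the pathway, each 5′ to 3′ towards the start, with the bases of a match in capitals.
H2-M2 (chr17:37483555-37483804, minus strand): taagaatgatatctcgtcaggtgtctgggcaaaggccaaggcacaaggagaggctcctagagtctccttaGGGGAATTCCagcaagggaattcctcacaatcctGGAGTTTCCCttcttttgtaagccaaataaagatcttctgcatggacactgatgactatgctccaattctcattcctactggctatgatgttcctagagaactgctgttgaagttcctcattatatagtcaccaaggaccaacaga
Fscn1 (chr5:142960105-142960354, plus strand): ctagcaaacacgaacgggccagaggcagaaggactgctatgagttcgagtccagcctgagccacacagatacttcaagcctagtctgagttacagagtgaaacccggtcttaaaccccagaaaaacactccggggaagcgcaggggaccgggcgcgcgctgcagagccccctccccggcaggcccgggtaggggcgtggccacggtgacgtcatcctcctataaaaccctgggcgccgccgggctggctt
Nfkb2 (chr19:46304487-46304736, plus strand): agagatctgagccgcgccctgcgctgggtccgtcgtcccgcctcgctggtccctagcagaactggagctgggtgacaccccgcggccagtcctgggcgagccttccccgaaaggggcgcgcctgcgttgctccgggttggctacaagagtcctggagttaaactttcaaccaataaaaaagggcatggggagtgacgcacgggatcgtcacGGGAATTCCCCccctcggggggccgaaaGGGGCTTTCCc
Rel (chr11:23770970-23771219, minus strand): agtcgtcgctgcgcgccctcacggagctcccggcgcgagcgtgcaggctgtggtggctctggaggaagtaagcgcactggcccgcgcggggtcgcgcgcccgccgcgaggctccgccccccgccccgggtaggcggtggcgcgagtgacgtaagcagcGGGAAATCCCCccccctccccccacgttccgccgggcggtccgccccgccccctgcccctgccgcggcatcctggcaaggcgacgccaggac

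Ligands that dendritic cells secrete moved in both directions. Of 16 tested cytokine and chemokine genes, 6 were higher and 5 lower, and without tag 1, 5 were higher and 3 lower. Ccl5, a chemokine for T cells that NK cells also express, had 5188, 6726 and 6698 CPM in gated cells, against 270.4, 298 and 287 CPM in the other dendritic cells (log2 fold change 4.54 ± 0.08, adjusted p = 5.17e-10), and 210 of 217 gated cells had a UMI. NK barcodes had 11671 CPM, so the other dendritic cells stood at 2.45% of the NK level and the gated cells at 53.4%. Gzma, an NK granule protease, was at 2.31% of its NK level in gated cells and 1.47% in the other dendritic cells. For each UMI of Gzma there were 32.3 UMIs of Ccl5 in gated cells, 2.32 in the other dendritic cells and 1.40 in NK barcodes.

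Il12b, the p40 subunit of interleukins 12 and 23, had 1137, 223 and 395 CPM in gated cells, against 40.3, 16.2 and 1.18 CPM in the other dendritic cells (log2 fold change 5.17 ± 0.41, adjusted p = 8.05e-06). The UMIs were uneven among gated cells, since 52 of 217 had any and the 5 highest held 48.3% of all 855. Il15, a cytokine that NK cells need, had 269.8, 362 and 426 CPM in gated cells, against 11.5, 61.1 and 26 CPM in the other dendritic cells (log2 fold change 3.60 ± 0.32, adjusted p = 1.72e-05). Ccl22, a ligand of CCR4, had 107, 84.3 and 61.2 CPM in 48 of 217 gated cells, against 1 UMI in all other dendritic cells, a ratio of 166 (29.2 to 6589). Tgfb1, encoding a regulatory cytokine, had 28.8, 55.3 and 16.7 CPM in gated cells, against 163, 191 and 162 CPM in the other dendritic cells (log2 fold change -2.21 ± 0.27, adjusted p = 1.26e-04), so that it was lower in gated cells of every tag. Cxcl9, a ligand of CXCR3, averaged 65.2 ± 34 CPM in gated cells and 485 ± 462 CPM in the other dendritic cells (log2 fold change -2.65 ± 0.26, adjusted p = 3.32e-05), and its change was 0.63 against the Cd209a-positive and -3.11 against the Cd209a-negative cells. Only the second of these passed, with an adjusted p of 1.41e-06, and the difference between them was not tested. Both comparisons share the gated cells. Il10 had 0 UMIs in gated cells and 1 in the other dendritic cells.

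Of 18 tested genes of immune regulation, 12 were higher in gated cells and 2 lower, with a median log2 fold change of 1.72. Cd274 and Cd200, given above with the maturation list, are on this list too. Socs2, a suppressor of cytokine signalling, had 418, 455 and 354 CPM in gated cells and 2 UMIs in all other dendritic cells, a ratio of 404 (111 to 3345). Fas, the death receptor, had 165, 166 and 122 CPM in gated cells, against 3.84, 5.39 and 3.55 CPM in the other dendritic cells (log2 fold change 5.17 ± 0.30, adjusted p = 1.27e-06). Pvr, a ligand of DNAM-1 and TIGIT, rose by 3.38, and Stat3, Stat5a and Stat4, factors of cytokine receptors, rose by 1.38, 1.74 and 1.69. Stat5a was 0.87 (adjusted p = 0.0882) within the depth range and 0.93 (adjusted p = 0.084) with a gate of at least 2 genes, and Stat4 was -0.032 (adjusted p = 0.925) with Klre1 and Cd79a allowed in the other dendritic cells. Havcr2, encoding TIM-3, had 26.8, 24.9 and 27.8 CPM in gated cells, against 238, 309 and 376 CPM in the other dendritic cells (log2 fold change -3.41 ± 0.23, adjusted p = 2.87e-06), and was -0.83 (adjusted p = 0.101) with a gate of at least 2 genes. Aldh1a2, an enzyme of retinoic acid synthesis, was low in both, with 18.5, 20.7 and 30.6 CPM in gated cells, against 4 UMIs in all other dendritic cells. Ido1 had 1 UMI in each group.

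MHC class II genes split within the group. Of 20 tested, 7 were higher and 9 lower in gated cells, with a median log2 fold change of 0.25, or 0.060 to 0.19 with 1 tag left out. March1, a ubiquitin ligase that takes MHC class II off the cell surface, had 18.5, 18 and 8.35 CPM in gated cells, against 372, 413 and 367 CPM in the other dendritic cells (log2 fold change -4.51 ± 0.25, adjusted p = 1.00e-06). Ciita, the master regulator of class II transcription, had 140.1, 109 and 80.7 CPM in gated cells, against 263, 391.8 and 318 CPM in the other dendritic cells (log2 fold change -1.45 ± 0.23, adjusted p = 7.27e-04). H2-Ab1, a class II chain, had 2966, 2017 and 1706 CPM in gated cells, against 6063, 6989.5 and 6359 CPM in the other dendritic cells (log2 fold change -1.47 ± 0.15, adjusted p = 3.54e-05), and Cd74, the invariant chain, had 11997, 9183 and 8727 CPM in gated cells, against 15999, 16646 and 16342 CPM in the other dendritic cells (log2 fold change -0.62 ± 0.09, adjusted p = 3.30e-04). H2-DMa and H2-DMb1, which load peptide, fell by 2.11 and 2.71 on the log2 scale. The other dendritic cells had been chosen for H2-Aa and the gated cells had not. With the gated cells that met the same H2-Aa and Flt3 limits, 43, 60 and 35 in tags 1 to 3, the log2 fold change was -1.16 for H2-Ab1 (adjusted p = 8.45e-06), -1.16 for Ciita and -4.90 for March1, while H2-Eb1 went to -0.26 and no longer passed (adjusted p = 0.107). Cd74 was -0.31 with these cells (adjusted p = 0.0304), against -0.62 with all gated cells. With a gate of at least 2 genes, Cd74 was -0.30 (adjusted p = 0.223) and Ciita -0.51 (adjusted p = 0.0912).

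In the other direction, H2-Eb2, a class II gene next to H2-Eb1, had 305, 167 and 119.7 CPM in gated cells, against 28.8, 23.4 and 10.6 CPM in the other dendritic cells (log2 fold change 3.33 ± 0.24, adjusted p = 4.68e-06). Reads of near-identical H2 genes can be shared between them, so values of single H2 genes are uncertain. Cd63, a tetraspanin of late endosomes, had 641, 708 and 489.9 CPM in gated cells, against 19.2, 0 and 8.28 CPM in the other dendritic cells (log2 fold change 6.15 ± 0.41, adjusted p = 2.87e-06). The lysosomal proteases Lgmn, Ctsz and Ctsh and the reductase Ifi30 rose by 2.41, 1.25, 1.19 and 1.10. With a gate of at least 2 genes, Ctsz, Ctsh and Ifi30 no longer passed.

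The gated cells themselves fell into unequal levels of class II. In 52 of 217, H2-Aa had under 3 UMIs, and in 30 it had 0. These 52 had pooled levels of 1007 CPM of Cd74 and 74 CPM of H2-Ab1, against 11812 and 2691 CPM in the other 165. Ciita was at 11.1 CPM in the 52, against 133 CPM in the 165. No such gap was seen for Ccr7, Relb or Fscn1. Ccr7 was at 1229 CPM in the 52, against 1318 CPM in the 165, Relb at 1181 against 1242 CPM and Fscn1 at 1529 against 1079 CPM. The 52 cells came from all tags, with 20, 21 and 11 from tags 1 to 3, and 41 of them had a Ccr7 UMI. Their median depth was 4898 UMIs, against 7084, and its part in the low class II counts was not tested. The split was made on H2-Aa after its values were seen, and no test was run on it.

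Genes of MHC class I presentation were more often higher. Of 26 tested, 14 were higher and 3 lower, with a median log2 fold change of 0.73. B2m, the light chain of all class I molecules, had 4479.6, 4148 and 3293 CPM in gated cells, against 1477, 1468 and 1172 CPM in the other dendritic cells (log2 fold change 1.64 ± 0.07, adjusted p = 3.30e-07). Nlrc5, the transcriptional activator of class I genes, had 513, 599 and 557 CPM in gated cells, against 80.6, 93.5 and 49.7 CPM in the other dendritic cells (log2 fold change 3.04 ± 0.20, adjusted p = 2.72e-06). H2-K1 and H2-D1, the classical heavy chains, rose by 1.77 and 1.12. The proteasome activator subunit Psme2 rose by 1.42 and the peptide-loading factor Tapbpl by 1.98. Wdfy4, which cDC1 need for presenting cell-bound antigen on class I, had 98.9, 76 and 44.5 CPM in gated cells, against 1105, 1434 and 1046 CPM in the other dendritic cells (log2 fold change -3.93 ± 0.21, adjusted p = 7.33e-07), the largest fall of the list.

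Genes of the cDC1 class were mostly lower in gated cells. Of 23 tested, 3 were higher and 19 lower, with a median log2 fold change of -2.61. Xcr1, the receptor for XCL1, had 6.18, 12.4 and 0 CPM in gated cells, against 219, 284 and 181 CPM in the other dendritic cells (log2 fold change -4.89 ± 0.36, adjusted p = 5.19e-06). Clec9a, a receptor for dead cells, had 43.3, 41.5 and 36.2 CPM in gated cells, against 219, 304 and 278 CPM in the other dendritic cells (log2 fold change -2.61 ± 0.22, adjusted p = 1.23e-05). Naaa, a lysosomal amidase, had 2.06, 24.9 and 5.57 CPM in gated cells, against 389, 458 and 375 CPM in the other dendritic cells (log2 fold change -4.97 ± 0.37, adjusted p = 5.70e-06). Irf8, the factor that cDC1 depend on, had 297, 178 and 214 CPM in gated cells, against 859, 938 and 834 CPM in the other dendritic cells (log2 fold change -1.85 ± 0.18, adjusted p = 2.91e-05). Its change was -0.86 against the Cd209a-positive and -2.18 against the Cd209a-negative cells. The 3 genes that rose were Batf3 and Id2, factors of cDC1 development, by 0.96 and 1.17, and Ly75, encoding the endocytic receptor DEC-205, by 2.80. Batf3 had 441, 358 and 323 CPM in gated cells, against 165, 217 and 236 CPM in the other dendritic cells, without overlap of the tags. With a gate of at least 2 genes, Clec9a was -0.70 (adjusted p = 0.0973) and Batf3 0.40 (adjusted p = 0.29), and 10 of 24 genes of the list were lower. Cd8a did not pass, at 78.1 ± 11.9 CPM in gated cells and 100.4 ± 35.9 CPM in the other dendritic cells.

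Of 17 tested genes of the cDC2 list, 4 were higher and 9 lower, with a median log2 fold change of -0.78. Relb, also on the NF-κB list, is one of the 4. Without TMM scaling 2 were higher and 10 lower. Without tag 2, 2 of 16 were higher and 6 lower. Clec10a and Clec4a2, lectin receptor genes, had 0 UMIs in all gated cells and 67 and 63 in the other dendritic cells, so they were at least 18.2-fold and 17.1-fold lower, with 3 UMIs over the gated cells as the floor. Cd300a, an inhibitory receptor, had 2.06, 11.1 and 0 CPM in gated cells, against 136, 115 and 169 CPM in the other dendritic cells (log2 fold change -4.45 ± 0.47, adjusted p = 5.04e-05). Sirpa, a receptor for CD47, passed narrowly (log2 fold change 0.63 ± 0.22, adjusted p = 0.0407) with overlapping tags, and it no longer passed when the tag block or any 1 tag was left out. Irf4, a factor of cDC2, did not pass (adjusted p = 0.0533), though it did without the tag block (0.0278) and without tag 3 (0.0225). It also passed as higher with gated cells that met the H2-Aa and Flt3 limits, at 1.26 (0.0099). Leaving out barcodes with macrophage or stromal transcripts (0.0136) or markers of other cell types (0.0376) had the same result. So did leaving out other dendritic cells with Siglech (0.0255) and keeping barcodes with several or no tags (0.0487). In the remaining alternatives where Irf4 was tested its call did not change. Its change was -0.61 against the Cd209a-positive and 2.98 against the Cd209a-negative cells, and the second passed with an adjusted p of 8.98e-04. Of 12 tested genes of pattern recognition and uptake, 2 were higher and 7 lower, with a median of -1.35, or -2.07 to -1.12 with 1 tag left out. Cd180 and Ly86, which form a receptor complex of B cells and myeloid cells, fell by 1.96 and 1.06, and Ly96, the MD-2 partner of TLR4, rose by 2.11.

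A general dendritic cell list, which also holds Irf8 and Irf4 given above, went both ways. Of 19 tested genes, 6 were higher and 9 lower. The median log2 fold change was -0.15, or -0.48 to 0.0014 with 1 tag left out. Without tag 2, 4 were higher. Itgax, encoding CD11c, had 35, 49.8 and 44.5 CPM in gated cells, against 149.6, 142 and 144 CPM in the other dendritic cells (log2 fold change -1.63 ± 0.22, adjusted p = 2.10e-04). Plac8 had 24.7, 105 and 64 CPM in gated cells, against 924, 733 and 1180.1 CPM in the other dendritic cells (log2 fold change -3.74 ± 0.34, adjusted p = 1.72e-05), and Bcl11a, a transcription factor, fell by 2.95. Zbtb46 rose by 0.83 and Csf2rb2, a receptor chain of the interleukin 3 family, by 2.02.

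Genes of migration and the cytoskeleton were split, with 10 of 33 higher, Ccr7 among them, and 15 lower. Gpr183, the receptor for oxysterols that places dendritic cells in the spleen, had 344, 532 and 251 CPM in gated cells, against 149.6, 115 and 208 CPM in the other dendritic cells (log2 fold change 1.33 ± 0.30, adjusted p = 0.00521), and was 0.59 (adjusted p = 0.304) with a gate of at least 2 genes. Rgs1, which dampens chemokine receptors, had 1438, 1320.4 and 1191 CPM in gated cells, against 245, 86.3 and 156 CPM in the other dendritic cells (log2 fold change 3.20 ± 0.22, adjusted p = 3.05e-06). Ccr2, the receptor for CCL2, had 6.18, 9.68 and 11.1 CPM in gated cells, against 175, 111 and 149 CPM in the other dendritic cells (log2 fold change -3.83 ± 0.30, adjusted p = 7.73e-06), and Itgb2, the chain of the leukocyte integrins, had 33, 26.3 and 25.1 CPM in gated cells, against 142, 173 and 136 CPM in the other dendritic cells (log2 fold change -2.32 ± 0.24, adjusted p = 3.92e-05). Coro1a and Tmsb10, which bind actin, fell by 1.88 and 1.73. Of 27 tested actin regulators of dendrites, 13 were higher and 5 lower, with a median log2 fold change of 0.43, or 0.40 to 0.68 with 1 tag left out. Swap70, an actin-binding guanine exchange factor, had 645, 730.0 and 821 CPM in gated cells, against 47.9, 64.7 and 42.6 CPM in the other dendritic cells (log2 fold change 3.94 ± 0.19, adjusted p = 5.41e-07). The GTPase-activating genes Arhgap28, Arhgap31 and Arhgap22 rose by 4.17, 4.05 and 3.29, while Was, encoding the Wiskott-Aldrich protein, and Rac2 fell by 2.26 and 1.82.

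**Figure D4:**
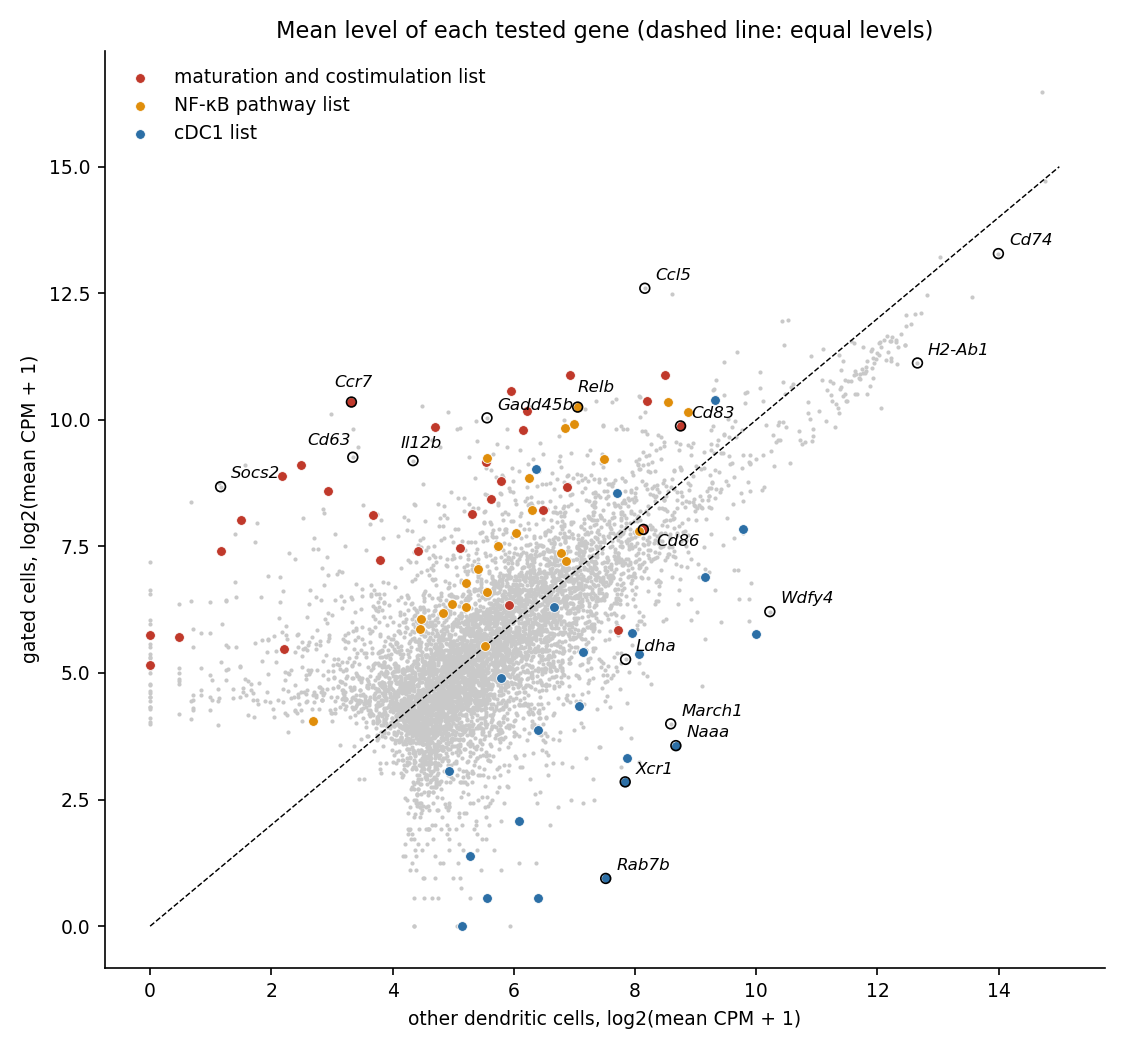
Mean level over the 3 tags of each of the 6884 tested genes, plotted as log2(mean CPM + 1) in gated cells (vertical) against the other dendritic cells (horizontal), with the genes of the maturation, NF-κB and cDC1 lists in colour and some genes named. Red points lie mostly above the dashed line of equal levels and blue points mostly below it, with Ccr7 at 1306 CPM in gated cells and 9.0 CPM in the other dendritic cells.

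Cholesterol genes were higher in 11 of 19 tested and lower in 1, with a median log2 fold change of 1.53. Without tag 2, 8 of 17 were higher, with a median of 0.95. Abcg1, which exports cholesterol, had 264, 306 and 387 CPM in gated cells, against 53.7, 50.3 and 53.2 CPM in the other dendritic cells (log2 fold change 2.70 ± 0.20, adjusted p = 4.68e-06). Hmgcs1 and Idi1 of cholesterol synthesis rose by 1.57 and 2.67, and Hmgcs1 was 0.85 (adjusted p = 0.11) with a gate of at least 2 genes. Soat1, which stores cholesterol as ester, fell by 0.77 and no longer passed without tag 1 or without tag 3.

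Of 21 tested genes of survival and death, 12 were higher and 1 lower, with a median of 0.91. Gadd45b, a stress-induced gene, had 1169.8, 1099 and 885 CPM in gated cells, against 86.3, 44.9 and 7.09 CPM in the other dendritic cells (log2 fold change 4.85 ± 0.38, adjusted p = 7.74e-06). The survival genes Bcl2l1, Cflar and Bcl2a1b rose by 3.31, 3.26 and 1.74, and so did a gene with the opposite known role, Bcl2l11, encoding BIM, by 2.04. Bcl2a1b has near-identical copies, and its value is uncertain. Cdkn1a, encoding the cell cycle inhibitor p21, rose by 4.21.

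Of 19 tested glycolysis genes, 4 were higher and 11 lower, with a median of -0.77. Without tag 2, 6 of 16 were lower, and DESeq2 called 7 lower. Ldha, lactate dehydrogenase, had 26.8, 58.1 and 27.8 CPM in gated cells, against 217, 249.8 and 219.9 CPM in the other dendritic cells (log2 fold change -2.48 ± 0.24, adjusted p = 2.80e-05), and Gpi1 fell by 1.23. Pfkfb3, which makes an activator of glycolysis, had 562, 722 and 754 CPM in gated cells, against 46, 82.7 and 73.3 CPM in the other dendritic cells (log2 fold change 3.45 ± 0.17, adjusted p = 5.77e-07), and the muscle-type enolase gene Eno3 rose by 5.50. In the apolipoprotein L family, Apol10b was the one gene besides Apol7c with counts high enough to test, and it had 68, 77.4 and 106 CPM in gated cells, against 1.92, 7.19 and 1.18 CPM in the other dendritic cells (log2 fold change 4.75 ± 0.46, adjusted p = 2.89e-05).

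Interferon-stimulated genes showed no common direction, with 7 of 18 higher and 5 lower and a median log2 fold change of 0.28, or 0.20 to 0.52 with 1 tag left out. Without tag 2, 3 of 15 were lower. Irf1, a factor of interferon responses, had 393, 481 and 565 CPM in gated cells, against 61.4, 79.1 and 23.6 CPM in the other dendritic cells (log2 fold change 3.32 ± 0.33, adjusted p = 2.94e-05), and the GTPase genes Gbp5 and Gbp4 rose by 4.79 and 3.61, while Ifi203 and Ifi27l2a fell by 3.01 and 2.22. Of 24 immediate early genes, 11 were higher and 8 lower. Fos had 649, 159 and 365 CPM in gated cells, against 1931, 545 and 799 CPM in the other dendritic cells (log2 fold change -1.38 ± 0.14, adjusted p = 4.17e-05), and the values of tag 1 were the highest in both groups. Nr4a3 rose by 2.34 and its relative Nr4a1 fell by 2.65, and Klf6 rose by 2.24. Without the scaling between classes described below, 7 immediate early genes were higher and 9 lower. Without tag 2 or without the tag block, 6 of 22 were higher and 5 lower, without tag 3, 7 of 23 were higher and 8 lower, and DESeq2 called 7 higher and 7 lower. With a gate of at least 2 genes, Fos, Nr4a1 and Ifi27l2a no longer passed.

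Ribosomal protein transcripts took a smaller part of the gated cells' RNA. They summed to between 149502 and 157744 CPM in gated cells, against 257374 to 267101 CPM in the other dendritic cells, and 77 of 83 tested genes were lower and 1 higher. The fits scaled the classes with TMM, and without it the median log2 fold change of all genes was -0.10, so changes near that size depend on the scaling. Mitochondrial UMIs were a median of 0.880% in gated cells and 1.18% in the other dendritic cells. In summed counts of this kind, fewer transcripts in each cell and fewer cells with the gene cannot be told apart. With every barcode thinned to 3000 UMIs, which left out 21 gated cells and 4 other dendritic cells, 24 of 27 genes of the maturation list were higher and 1 lower.

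**Figure D5:**
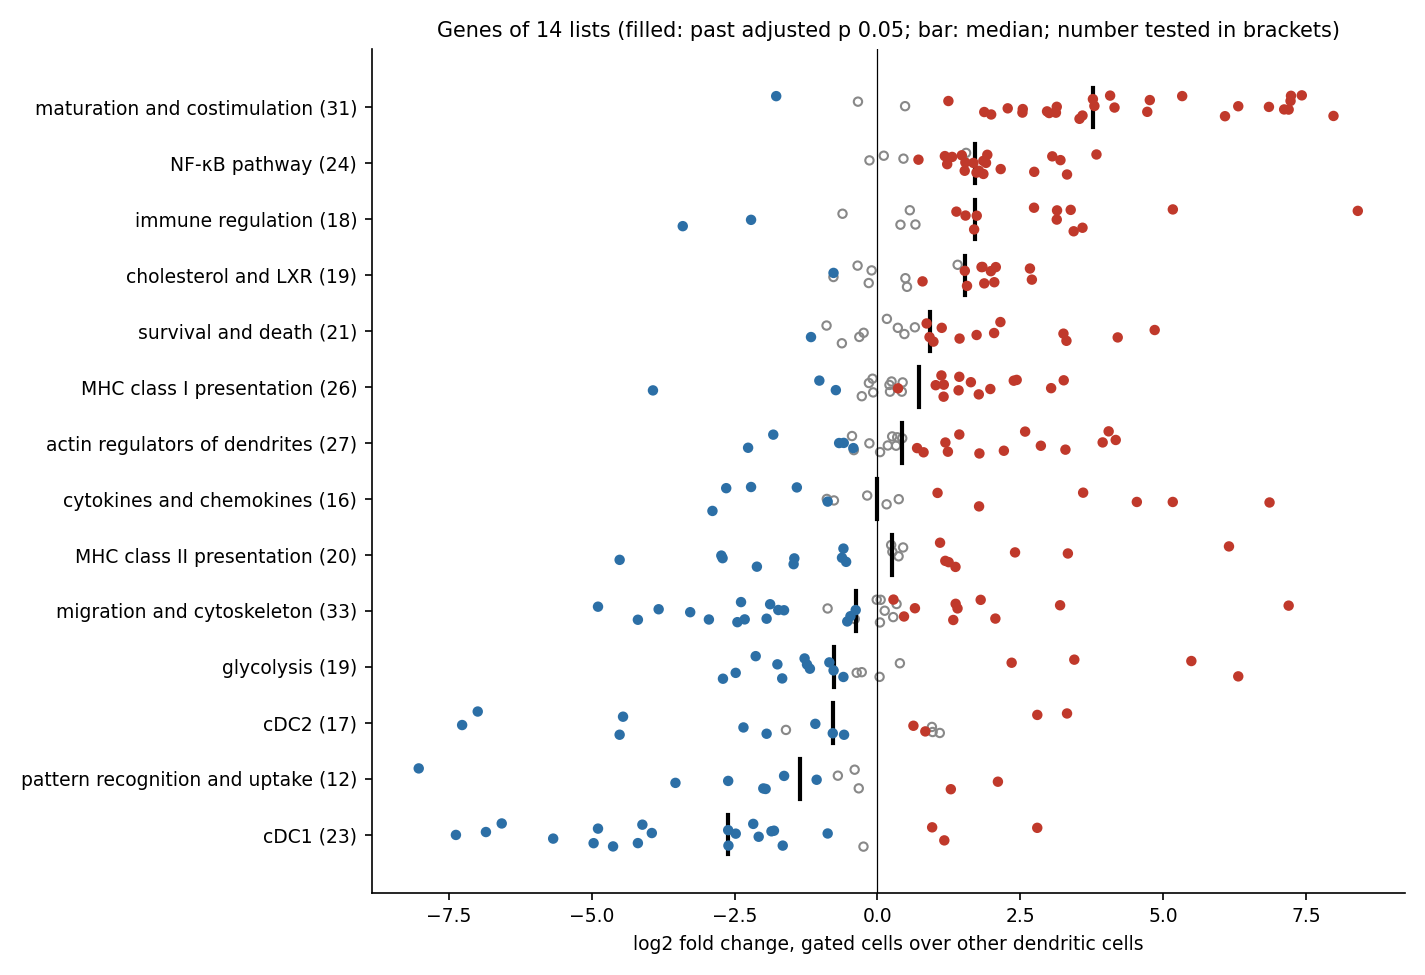
Log2 fold change, gated cells over the other dendritic cells, of each tested gene of 14 lists, with filled points past an adjusted p of 0.05 (red higher, blue lower), open points not past it, and a black bar at the median. The medians run from 3.77 for the maturation list to -2.61 for the cDC1 list.

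The 10 genes with the largest rises, among those with at least 50 CPM in the higher group, were low or absent in the other dendritic cells. A ranking by fold change favours such genes. Those at 0 in the other dendritic cells passed the count filter through the gated cells alone. Socs2, described above, and Ankrd33b, with 315, 492 and 489.9 CPM in gated cells and 2 UMIs in the other dendritic cells, were found in 160 and 155 gated cells. Asprv1, an aspartic protease, had 409.9, 377 and 209 CPM in 82 gated cells, against 1 UMI in all other dendritic cells. Insm1, a zinc finger factor known from endocrine cells, and Oprd1, the delta opioid receptor, each had UMIs in 66 gated cells and none in the other dendritic cells, which puts them at least 59.7-fold and 64.6-fold higher with 3 UMIs over the other dendritic cells as the floor. Mmp25, a membrane-bound metalloproteinase, and Lad1, encoding ladinin, had UMIs in 59 and 46 gated cells and none in the others, at least 41.3-fold and 32.7-fold higher. Colq, which anchors acetylcholinesterase, was in 28 gated cells and Cdh2, N-cadherin, in 14, and both were at 0 in the other dendritic cells, at least 35.2-fold and 44.2-fold higher. Nrg1, a ligand of ErbB receptors, had 6.18, 187 and 245 CPM in gated cells and 0 UMIs in the other dendritic cells, at least 92.4-fold higher, and the 5 highest of 8 gated cells with a UMI held 98.7% of them.

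The 10 largest falls included Xcr1 and Naaa, given above, and further genes that were close to absent in gated cells, which the ranking favours too. Cd209d, a lectin receptor gene, had 0 UMIs in gated cells and 125 in the other dendritic cells, at least 34-fold lower. Rab7b, a GTPase of late endosomes, had 2 UMIs in gated cells, against 205, 174 and 167 CPM in the other dendritic cells, and Tlr3, the sensor of double-stranded RNA, had 1 UMI, against 72.9, 93.5 and 85.1 CPM. Mycl, a MYC family factor, had 4.12, 0 and 0 CPM in gated cells, against 76.7, 95.3 and 72.1 CPM in the other dendritic cells, and no longer passed with a gate of at least 2 genes. Kmo, an enzyme of tryptophan breakdown, had 0, 5.53 and 8.35 CPM in gated cells, against 80.6, 156 and 128 CPM in the other dendritic cells (log2 fold change -4.66 ± 0.40, adjusted p = 1.34e-05). Ppfia4, a liprin, had a log2 fold change of -4.95. Apobr, a receptor for apolipoprotein B, had 0, 4.15 and 0 CPM in gated cells, against 49.9, 82.7 and 68.6 CPM in the other dendritic cells, and Eda, the TNF family ligand ectodysplasin, had 2.06, 1.38 and 0 CPM in gated cells, against 28.8, 62.9 and 70.9 CPM in the other dendritic cells.

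Against the 2 classes of other dendritic cells taken apart, the maturation list was higher and the cDC1 list mostly lower in gated cells in both, while the cDC2 list was not on one side. These comparisons share the gated cells and are not independent. Against the Cd209a-positive cells, 5388 genes were tested and 41.9% passed, with 22.6% higher and 19.4% lower. Against the Cd209a-negative cells 6379 were tested and 44.5% passed, with 23.1% higher and 21.4% lower. The maturation list had 28 of 32 genes higher against the Cd209a-positive cells and 28 of 31 against the Cd209a-negative cells, and 1 lower in each. Genes of the cDC1 list were lower for 9 of 16 against the Cd209a-positive cells and for 19 of 23 against the Cd209a-negative cells. Genes of the cDC2 list were lower for 10 of 17 against the Cd209a-positive cells and for 2 of 12 against the Cd209a-negative cells, where 6 were higher. The 2 of 12 lower were near the 21.4% of all genes tested. Cd209a, which divides the classes, is itself a gene of the cDC2 list and was left out of the counts of these 2 comparisons. Ccr7 changed by 8.47 against the Cd209a-positive and 6.82 against the Cd209a-negative cells, Wdfy4 by -2.67 against the Cd209a-positive and -4.29 against the Cd209a-negative cells and Gpr183 by 0.57 against the Cd209a-positive and 1.79 against the Cd209a-negative cells, where the first value of Gpr183 did not pass (adjusted p = 0.19).

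Transcripts of other cell types were present in some gated cells. Of 12 tested monocyte or macrophage markers, 5 were higher and 3 lower, and their summed level was 401 to 3610.5 CPM in gated cells, against 633 to 1929 CPM in the other dendritic cells. Without tag 1, 2 of 7 were higher, without tag 3, 7 of 11, and DESeq2 called 2 higher and 4 lower. Of all 2704 UMIs of Lyz2, a lysozyme gene, 98.2% lay in 5 gated cells, and C1qa, a complement gene of macrophages, was found in 3. Lyz2 had 2653, 1897 and 122 CPM in gated cells, against 1193, 223 and 468 CPM in the other dendritic cells and did not pass (adjusted p = 0.216), though it did without tag 3, at 2.15 (adjusted p = 1.43e-05). Fcgr1 of the list was at 0 in gated cells. By the number of gate genes, pooled Lyz2 was at 9827 CPM in gated cells with 3 and 38.5 CPM in those with 6. Vcam1 and Spic, also on the list, were found in 79 and 27 gated cells, with 119, 111 and 134 CPM and 47.4, 27.7 and 33.4 CPM. Without the barcodes that held complement or collagen transcripts or at least 20 Lyz2 UMIs, Lyz2 was -2.92 on the log2 scale, and the maturation list still had 28 of 31 genes higher. Apoe, another gene of the cholesterol list, was 1.82 with all cells, 0.91 without tag 2 (adjusted p = 0.0639) and 0.60 without those barcodes (adjusted p = 0.247). The part of these cells in the other results was not tested.

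NK markers summed to 463 to 805 CPM in gated cells, against 525 to 593 CPM in the other dendritic cells. Of 9 tested, 2 were higher and 2 lower, near the 24% and 21.1% of all genes tested. Without tag 1, 4 NK markers were higher, and without tag 3, 1 of 8. The shares of 24% and 21.1% apply to the other counts in this paragraph, but not to those under alternatives. Gzma had 187, 158 and 273 CPM in gated cells, against 109, 106 and 143 CPM in the other dendritic cells, and 8308 CPM in NK barcodes. Both classes had been cleared of Klre1, and the part of free RNA or of doublets in these counts was not tested. Doublets within 1 tag pass the tag filter, and their number estimated from the tag proportions was 1781, or 15.2% of the 11692 barcodes. Il7r, Tmem176a, Tmem176b and Rora, listed as markers of other innate lymphoid cells, were the 4 genes of that list that could be tested, and all 4 were higher in gated cells. Rora no longer passed without the tag block or without tag 2 or tag 3. Il7r, the interleukin 7 receptor, had 82.4, 141 and 142 CPM in gated cells, against 34.5, 14.4 and 11.8 CPM in the other dendritic cells (log2 fold change 2.75 ± 0.38, adjusted p = 3.00e-04), and Tmem176a, a cation channel family gene, had 1024, 995 and 816 CPM in gated cells, against 192, 210.3 and 125 CPM in the other dendritic cells (log2 fold change 2.56 ± 0.15, adjusted p = 1.10e-06). Il22ra1 of the list had 0 UMIs in gated cells. No B cell, T cell, platelet or neutrophil marker passed the test, with 3, 1, 4 and 0 genes tested, though without tag 2 the 1 platelet gene that could be tested was lower. Of 9 tested genes of plasmacytoid dendritic cells, 2 were higher and 4 lower. Of 2 erythroid and 5 stromal or endothelial markers, 1 of each was lower and none higher, while without tag 1, 2 of 3 stromal markers were higher. Of 2 plasma cell markers Prdm1, a transcription factor also known from dendritic cells, was higher (log2 fold change 4.27 ± 0.96, adjusted p = 0.00494), but it could not be tested without tag 1 or without tag 2. Of 17 tested cell cycle genes, 3 were higher and 6 lower, and without tag 2, 1 of 15 was higher and 4 lower, and of 13 mitochondrially encoded genes 6 were lower and none higher.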

How the data were processed

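Single cells of NK preparations from mouse spleen were sequenced with a 10x Genomics 3′ kit (v3.1), per the labels' protocols. The deposited file holds UMI counts per gene and barcode, made by the authors with Cell Ranger 7.0.0, per the file headers, on the build mm10, per the submitters' processing notes, which also name Seurat. The annotation used for counting is not given in the sources used here. Intronic reads may therefore be in the counts or not. A second sample was not analysed here.

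The filter on barcodes was 500 to 6000 genes and no more than 10% mitochondrial UMIs. A tag was called above 140, 196 or 138 tag UMIs for tags 1 to 3, and barcodes with exactly 1 tag were used. No doublet caller was run beyond the tags and the limits on Klre1 and Cd79a. UMI counts of each class were added up within each tag. The sums entered edgeR 4.0.16 (R 4.3.3, quasi-likelihood, TMM, filterByExpr, tag as a block, Benjamini-Hochberg over all genes tested). The block is by construction, since both classes come from the same tags. Standard errors are the log2 fold change over the root of F. DESeq2 1.42.0, other scalings, filters and cell sets were alternatives. p-values measure only the spread from tag to tag in 1 library. Intervals are exact (Poisson for UMI sums, binomial for shares) and cover counting error only.

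Members and the 32 gene lists were chosen with earlier results of these data known. A gene on several lists was counted in each. The rule for named genes took the 10 largest rises and falls with at least 50 CPM in the higher class, the same direction in every tag and no predicted or unnamed symbol, and genes of the lists past the threshold. Listed genes that did not pass, and splits by H2-Aa, were named after their values were seen. The genes of the gate and Klre1, Cd79a, H2-Aa and Flt3 were left out of counts of calls, and Cd209a was also left out in the 2 comparisons divided by it. Positions are those of GENCODE M21, and 32158 of 32285 gene IDs matched it.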

Additional observations from a re-analysis of the deposited data

Results flagged for a closer look

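Barcodes with several tags were used in no comparison, and 18 of 3540 passed the gate of the mature dendritic cells, 0.508% with an exact binomial interval of 0.302 to 0.802%. Of these 18, 13 had a Ccr7 UMI. They are reported as a signal in barcodes outside the comparisons. Among 510 barcodes with no tag, 3 passed.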

How the results depend on the processing

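The main comparison called 1654 genes higher and 1454 lower in gated cells. The tag pairs the classes, since both come from the same tags. Without the tag block, 1564 were higher and 1467 lower, and of the named genes Irf4 then passed while Rora and Sirpa no longer did. Without the block the Cd209a-positive comparison had 1176 and 1067, and the Cd209a-negative comparison 1345 and 1321. Leaving out 1 tag gave 1165 to 1558 higher and 1000 to 1364 lower in the main comparison, 772 to 1215 and 661 to 998 against the Cd209a-positive cells, and 1140 to 1428 and 996 to 1270 against the Cd209a-negative cells. The lowest pair for the Cd209a-positive cells, 772 and 661, was without tag 3, which holds 33 of the 60 cells.

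DESeq2 called 1166 higher and 932 lower in the main comparison, 830 and 629 against the Cd209a-positive cells, and 1013 and 802 against the Cd209a-negative cells. A gate of at least 2 genes gave 1116 of 7596 tested genes higher and 624 lower, and a mean share of 2.48% ± 0.617 (SD, n = 3). With it, 10 of 24 genes of the cDC1 list were lower. With that gate 20 named genes past the threshold kept their direction but no longer passed: Batf3, Cd74, Ciita, Clec9a, Ctsh, Ctsz, Fos, Gpr183, H2-Eb1, Havcr2, Hmgcs1, Ifi27l2a, Ifi30, Mycl, Nr4a1, Rela, Rora, Sirpa, Soat1 and Stat5a. Cells within the depth range of the gated cells gave 1069 higher and 908 lower, and thinning to 3000 UMIs gave 881 and 746. Both use fewer counts, and fewer genes were tested. The gate of at least 2 genes changed both groups. It held 292 gated cells and left 123 other dendritic cells, against 217 and 167 in the main comparison. Of the 75 barcodes that it added, 44 met the H2-Aa and Flt3 limits and had been other dendritic cells. The part of this move in the lost calls was not tested.

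Values that turned sign were log2 fold changes of these genes. With at least 2 gate genes, Cd86 was 0.47, Cd8a 0.88, Cxcl9 0.15 and Eda 0.064. Within the depth range, Cd86 was 0.50, Cd8a 0.71, Apoe -0.68, C1qa -0.87, Lyz2 -2.10 and Sirpa -0.40. After thinning, Cd86 was 0.019 and Cd8a 0.15. With gated cells that met the H2-Aa and Flt3 limits, Apoe was -0.37, Cd8a 0.12 and Lyz2 -3.65. With Klre1 and Cd79a allowed in the other dendritic cells, Cd8a was 0.043, Gzma -1.48 and Stat4 -0.032. Lyz2 was -0.083 without tag 2, -0.34 with at least 4 gate genes and -2.92 without macrophage or stromal transcripts, an alternative chosen after seeing the data. Without tag 3 Lyz2 kept its sign, at 2.15. Nfkb1 was 0.15 without tag 3. The cause was not tested.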
